A study of Mus musculus with 8 samples.

Results

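The calcineurin and NFAT genes are 9 genes chosen by symbol for their role in this pathway, and each was read from the 1 probe set whose annotation names that symbol alone. They are the calcineurin subunit genes Ppp3ca, Ppp3cb and Ppp3r1, the NFAT genes Nfatc1, Nfatc2, Nfatc3 and Nfatc4, and the calcineurin regulator genes Rcan1 and Rcan2. They make up 9 of the 19938 genes measured. Expression was measured on Affymetrix gene arrays, 1 per animal, in hearts of 9-week-old C57Bl6 mice. The 4 groups, of 2 animals each, were homozygous GATA4 S105A mutants given PE (arrays 7 and 8), untreated S105A mutants (arrays 5 and 6), wild-type (WT) mice given PE (arrays 3 and 4) and untreated WT mice (arrays 1 and 2). S105A replaces a serine of GATA4, a cardiac transcription factor, by alanine, and this serine is known as a site that ERK kinases phosphorylate. PE, an adrenergic drug that the labels spell out as pseudoephedrine, was infused subcutaneously for 5 days at 100 mg/kg/day from an osmotic pump. The treatment text gives saline as the alternative to PE, while the titles call those animals untreated. The titles say whole heart and the tissue field names the ventricle, so the share of atrial tissue is unknown, and sex is not given.

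Calcineurin is a phosphatase that calcium and calmodulin switch on. It removes phosphates from NFAT proteins, which then enter the nucleus and switch on genes together with partners such as GATA4, and kinases of the GSK3, CK1 and DYRK families send NFAT back out. In heart muscle the pathway is known for driving pathological growth, and Rcan1 is both an inhibitor of calcineurin and one of the genes that NFAT switches on. The pathway acts largely through phosphorylation and protein location, which an mRNA array does not measure.

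Among the 9 genes, Rcan1 stood at a higher level in all 4 PE hearts than in any of the 4 untreated hearts, by about 2-fold, while the other 8 differed by at most 0.25 log2 units on average. None of the 9 passed the test over all genes in any comparison, where at most 0.00502% of all genes did. The upstream sequences of Rcan1 and of its paralog Rcan2 are shown first, because this pair of paralogs is compared in the results and because the core NFAT motif GGAAA can be searched in them. In human and rodent cells an internal promoter of Rcan1 that gives a shorter isoform is known to respond to calcineurin and NFAT. Windows from the table of RefSeq starts (GRCm38.p6) were used for 7 of the 9 genes, all but Nfatc1 and Ppp3ca, with 2 starts for Rcan1. Each run below is the 250 bases before a start, from 5′ to 3′ on the strand of the gene, and capitals mark GGAAA on either strand (written TTTCC where it lies on the opposite strand; the 2 forms cannot overlap).
Rcan1, downstream start, chr16:92400079-92400328, minus strand: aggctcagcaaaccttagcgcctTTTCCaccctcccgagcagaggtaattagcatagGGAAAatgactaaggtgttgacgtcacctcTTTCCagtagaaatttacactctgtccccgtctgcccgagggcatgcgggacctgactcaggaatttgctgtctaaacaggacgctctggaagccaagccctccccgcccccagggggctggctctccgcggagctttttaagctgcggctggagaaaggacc
Rcan1, upstream start, chr16:92466170-92466419, minus strand: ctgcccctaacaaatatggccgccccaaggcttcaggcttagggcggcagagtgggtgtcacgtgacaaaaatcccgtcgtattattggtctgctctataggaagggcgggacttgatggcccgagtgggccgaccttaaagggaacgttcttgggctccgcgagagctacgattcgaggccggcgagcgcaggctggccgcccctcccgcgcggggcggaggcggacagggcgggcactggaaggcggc
Rcan2, the start of its 3 with the most matches, chr17:43801102-43801351, plus strand: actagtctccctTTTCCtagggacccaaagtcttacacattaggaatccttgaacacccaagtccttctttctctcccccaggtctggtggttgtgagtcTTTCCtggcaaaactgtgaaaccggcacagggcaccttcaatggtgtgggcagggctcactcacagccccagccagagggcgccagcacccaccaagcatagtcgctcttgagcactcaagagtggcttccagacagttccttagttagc
The downstream start of Rcan1 had 3 matches and its upstream start 0, and the Rcan2 start shown had 2. Of all 32851 windows of this length in the table, 55.6% held at least 1 match, 21.4% at least 2 and 6.39% at least 3. Windows of Nfatc2 (1 of its 2 starts), Nfatc4 and Ppp3cb also held 3, so 4 of the 12 windows used for the 7 genes did. Such a match is a run of letters and not a measured binding site. The Rcan1 probe set is annotated with transcripts of both starts, so the arrays do not tell them apart.

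The median log2 value of an array was 6.18 to 6.23, and the number of arrays, 2 per group, limits the precision. On the first principal component, with 69.5% of the variance, PE array 3 lay at 53.3 and PE array 7 at 25.1, apart from PE arrays 4 and 8 (-0.41 or lower) and from the untreated arrays (-20.8 to -16.1). For the 9 genes and the pathway genes named, averaged PE differences that moved by over 1.5 times without these arrays are also given without them. All 10 cardiomyocyte markers had log2 values of 12.4 or more on every array. Gata4 had a log2 value of 10.02 and 10.09 in S105A PE hearts, 10.07 and 9.96 in untreated S105A hearts, 10.16 and 9.92 in WT PE hearts and 10.14 and 10.05 in untreated WT hearts. An expression probe set is not designed to read the substitution, so these values do not check the genotype labels. Myh7, the beta myosin heavy chain and a mark of cardiac stress, rose by 2.30 log2 units with PE over both genotypes (SE 0.12, limma adjusted p = 0.00808) and was the 1 gene of the array past the threshold of 0.05 there, as it was in WT alone (2.70, limma adjusted p = 0.0279). The call in WT depended on the settings, since 0 genes passed there with all rows tested or with only the 4 arrays compared.

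The first question was how PE changed the feedback regulators of calcineurin. Rcan1 had log2 values of 10.98 and 10.59 in S105A PE hearts (arrays 7 and 8), against 9.76 and 9.99 in untreated S105A hearts. In WT the PE hearts had 11.56 and 10.74 (arrays 3 and 4), against 10.01 and 10.08 in untreated hearts. All 4 PE values lay above all 4 untreated values, and within each genotype the array that stood apart on the first component (7 and 3) was the higher of the PE pair. The PE difference averaged over genotypes was 1.01 log2 units (SE 0.19), a 2.01-fold difference with a 95% interval of 1.47 to 2.74. Its unadjusted p was 0.0012, the 73rd smallest of the 19938 genes, and its limma adjusted p over all genes was 0.275, so it did not pass. Within the genotypes the difference was 0.91 in S105A (SE 0.26, 1.87-fold, limma adjusted p = 0.765) and 1.11 in WT (SE 0.26, 2.15-fold, limma adjusted p = 0.419).

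The size of the Rcan1 difference depended on the arrays that stood apart, and its sign did not. Without arrays 3 and 7 it was 0.71 log2 units over both genotypes, and there the limma adjusted p was 0.0311, a call shared by 0.687% of all genes. The fit without them takes its spread from the untreated hearts alone. It was 1.21 without array 4 (limma adjusted p = 0.00467), where 20.7% of all genes passed, and at least 0.80 without any other single array, where it did not pass. In WT the difference was 1.51 without array 4 (limma adjusted p = 0.00641, with 17.8% of all genes called) and 0.70 without array 3 (limma adjusted p = 0.930).

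Rcan2, the paralog of Rcan1 and likewise a calcineurin inhibitor, did not share this pattern. It had log2 values of 11.33 and 11.52 in S105A PE hearts, against 11.46 and 11.44 in untreated S105A hearts. In WT it had 11.35 and 11.47 in PE hearts, against 11.59 and 11.68 in untreated hearts. In S105A the values with and without PE overlapped, and in WT both PE values lay below both untreated ones. The averaged PE difference was -0.12 (SE 0.07, 95% interval -0.28 to 0.04, limma adjusted p = 0.371), with -0.02 in S105A (SE 0.10) and -0.23 in WT (SE 0.10). The averaged difference was -0.05 without arrays 3 and 7. To test the paralogs against each other, the log2 difference of Rcan1 and Rcan2 was taken within each array. This difference was 1.13 log2 units higher in PE than in untreated hearts, higher in 4 of 4 PE hearts, with an exact two-sided permutation p of 0.0286, the smallest that 4 against 4 arrays can give. Adjusted over the 2 paralog pairs tested, the exact permutation p was 0.0571, which does not pass. It could have passed only if the other pair had reached 0.0286 as well, so the adjusted value decides nothing here. Rcan1 spanned 1.80 log2 units over the arrays and Rcan2 0.35, so the test largely restates the order of the Rcan1 values.

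**Figure D1:**
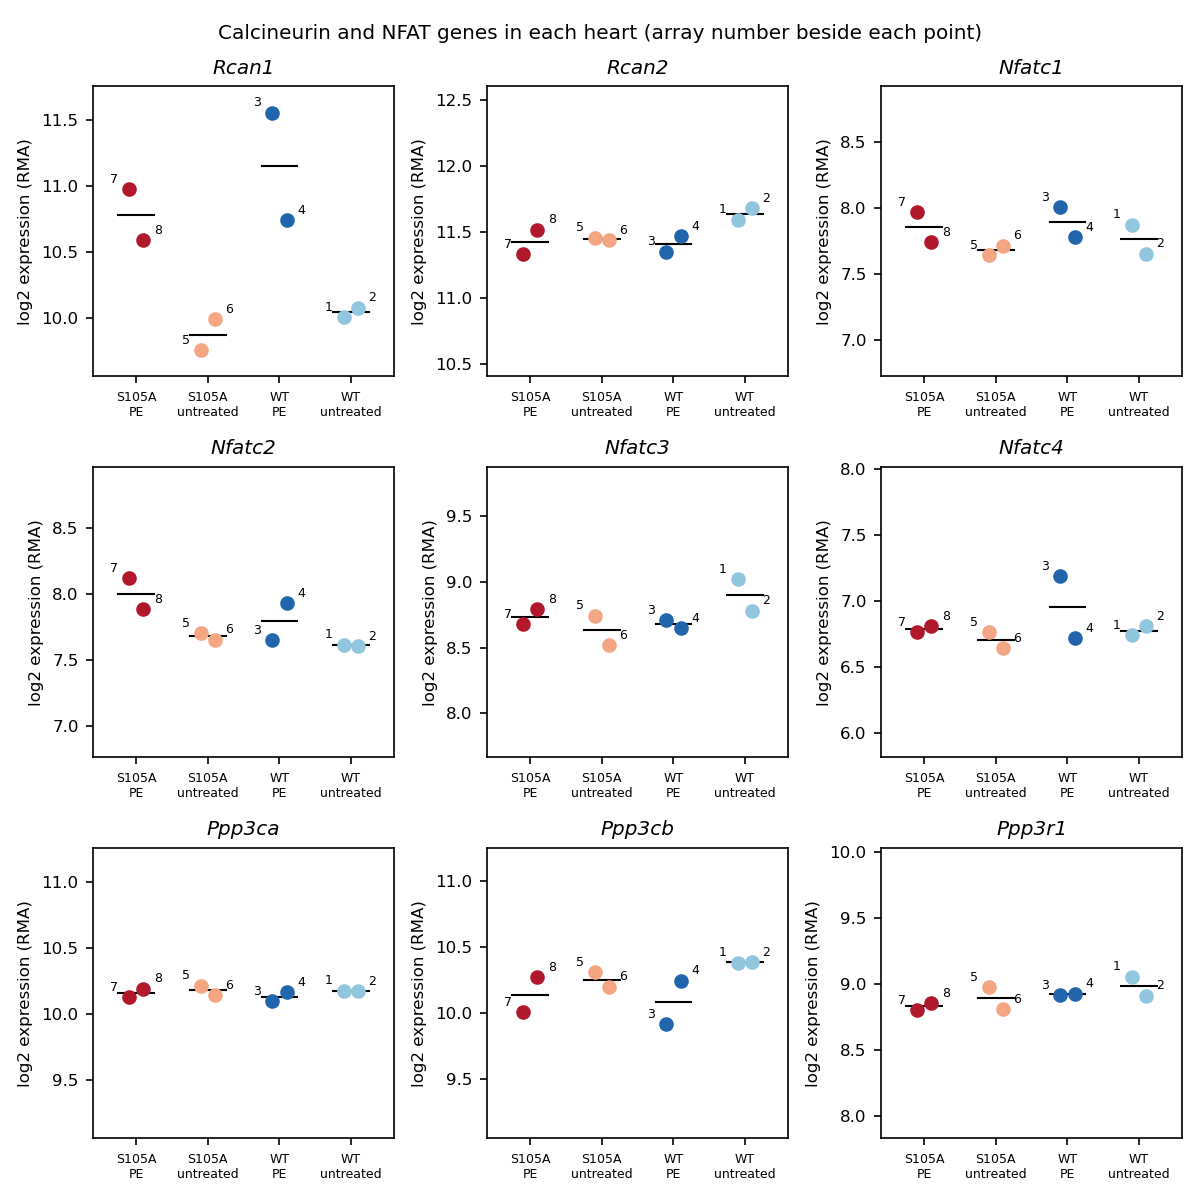
Log2 expression of the 9 genes in each heart, with 1 panel per gene, each spanning the same range of log2 units, points for arrays and a line for the mean of 2. The groups run from S105A PE over S105A untreated and WT PE to WT untreated, and in the Rcan1 panel the 4 PE hearts (10.59 to 11.56) lie above the 4 untreated hearts (9.76 to 10.08).

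Of the calcineurin subunit genes, Ppp3ca and Ppp3r1 had the narrowest spans of the 9 genes over the 8 arrays (0.12 and 0.25 log2 units). Ppp3ca encodes the alpha form of the catalytic subunit, and its 8 values lay between 10.10 and 10.22. Its averaged PE difference was -0.03 (SE 0.05), with a 95% interval of -0.16 to 0.10 that leaves out a change of the size seen for Rcan1. Ppp3r1, the calcium-binding regulatory subunit, had values of 8.80 and 8.85 in S105A PE hearts and 8.97 and 8.81 in untreated S105A hearts. In WT it had 8.91 and 8.92 in PE hearts and 8.91 and 9.05 in untreated hearts, so that PE and untreated values overlapped in both genotypes. Its averaged PE difference was -0.06 (SE 0.07, 95% interval -0.22 to 0.10).

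Ppp3cb, the beta form of the catalytic subunit, is the form whose loss blunts hypertrophy in mice. It had log2 values of 10.01 and 10.27 in S105A PE hearts, against 10.31 and 10.20 in untreated S105A hearts. In WT it had 9.92 and 10.25 in PE hearts, against 10.38 and 10.39 in untreated hearts. The 2 lowest of its 8 values were those of arrays 3 and 7, and the values with and without PE overlapped in S105A but not in WT. The averaged PE difference was -0.21 (SE 0.10, 95% interval -0.44 to 0.02, limma adjusted p = 0.321), and it was -0.06 without arrays 3 and 7. Summed over its 10 measured markers, the cardiomyocyte signal in linear units was 112200 to 114500 in S105A PE hearts, against 116900 to 117800 in untreated S105A hearts. It was 96150 (array 3) and 116100 in WT PE hearts, against 116900 to 117000 in untreated WT hearts, and its part in the Ppp3cb values was not tested. In bulk tissue fewer cells of a type cannot be told apart from less RNA per cell. The log2 difference of Ppp3ca and Ppp3cb within an array was 0.18 higher in PE than in untreated hearts, with an exact two-sided permutation p of 0.114 (also 0.114 after adjustment over the 2 pairs), and 0.063 higher without arrays 3 and 7.

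Of the NFAT genes, Nfatc2 had the largest PE difference averaged over genotypes with all 8 arrays, while in WT that of Nfatc3 was larger in size (-0.22 against 0.18). Its protein is known from T cells, and its loss reduces hypertrophy in mice. It had log2 values of 8.12 and 7.89 in S105A PE hearts, against 7.70 and 7.66 in untreated S105A hearts. In WT the values were 7.65 and 7.93 in PE hearts, against 7.62 and 7.61 in untreated hearts. Both PE values lay above both untreated values within each genotype, but array 3 of WT PE lay just under the 2 untreated S105A values. The averaged difference was 0.25 (SE 0.09, 1.19-fold, 95% interval 0.05 to 0.46), with an unadjusted p of 0.0239 and a limma adjusted p of 0.283, and it was 0.26 without arrays 3 and 7. Here the WT PE heart that stood apart (array 3) was the lower of its pair, unlike for Rcan1. The 9 measured T and B lymphocyte markers gave a summed linear signal of 395 to 460 in S105A PE hearts, against 445 to 446 in untreated S105A hearts, and 398 to 449 in WT PE hearts, against 440 to 467 in untreated WT hearts. In 0 of these 9 markers did all PE values lie above (6.7% of all genes) or below (6.15% of all genes) all untreated values. Their mean log2 value on an array was 5.22 to 5.47, under the array medians of 6.18 to 6.23, so these sums say little about lymphocytes.

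Nfatc1, which is needed for heart valves and is used in the endocardium, had log2 values of 7.97 and 7.74 in S105A PE hearts, against 7.65 and 7.72 in untreated S105A hearts. In WT it had 8.01 and 7.78 in PE hearts, against 7.88 and 7.66 in untreated hearts. The WT values overlapped, and arrays 3 and 7 were the highest of the 8. Its averaged PE difference was 0.15 (SE 0.09, 95% interval -0.07 to 0.37), and 0.04 without arrays 3 and 7. The 3 endocardial markers had a median PE difference of -0.55, 1 of the 3 had a positive difference, 0 were higher in all PE hearts (6.7% of all genes) and 1 was lower in all (6.15% of all genes).

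Nfatc3, whose loss also reduces hypertrophy in mice, had a PE difference of opposite sign in the 2 genotypes, though not without array 6, where the S105A difference was -0.0079. It had log2 values of 8.68 and 8.79 in S105A PE hearts, against 8.74 and 8.52 in untreated S105A hearts. The WT values were 8.71 and 8.65 in PE hearts, against 9.02 and 8.78 in untreated hearts. The difference was 0.10 in S105A (SE 0.12), where the values overlapped, and -0.22 in WT (SE 0.12), where they did not. The S105A effect less the WT effect was 0.32 (SE 0.17, unadjusted p = 0.0962, limma adjusted p = 1.00), so the genotypes were not shown to differ.

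Nfatc4 encodes the NFAT protein first found to bind GATA4 in heart muscle. It had log2 values of 6.76 and 6.81 in S105A PE hearts, against 6.76 and 6.64 in untreated S105A hearts. The WT values were 7.19 and 6.72 in PE hearts, against 6.74 and 6.81 in untreated hearts. Array 3 was the 1 array above the others, which lay between 6.64 and 6.81. The WT difference of 0.18 (SE 0.15) was -0.06 without array 3. It was 0.41 without array 4, where WT PE is array 3 alone and the limma adjusted p was 0.0381, in a fit that called 17.8% of all genes. Averaged over genotypes it was 0.13 (SE 0.11), with 0.01 without array 3 and 0.02 without arrays 3 and 7. Without array 4 the averaged difference was 0.25, with a limma adjusted p of 0.0433, in a fit that called 20.7% of all genes.

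**Figure D2:**
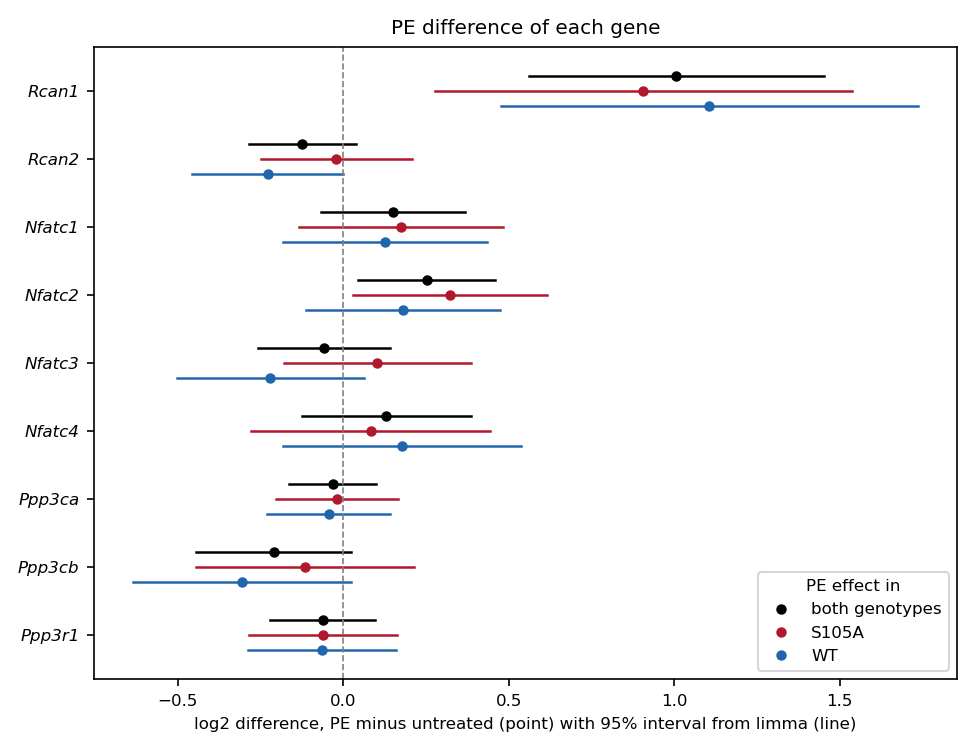
PE minus untreated differences on the log2 scale for the 9 genes, as points with 95% intervals from limma, over both genotypes (black), in S105A (red) and in WT (blue). The intervals of Rcan1 lie above 0 in all 3, and those of Ppp3ca and Ppp3r1 lie between -0.29 and 0.17.

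Counted over the set, 0 of the 9 genes passed an adjusted p of 0.05 by limma in the averaged PE comparison, where 0.00502% of all genes passed. At an unadjusted p under 0.05 there were 2 (Rcan1 and Nfatc2), against 16.7% of all genes. In 1 of the 9, Rcan1, all PE hearts lay above all untreated hearts, against 6.7% of all genes, and in 0 they lay below, against 6.15%. In S105A 0 passed (0% of all genes), 2 had an unadjusted p under 0.05 (5.86% of all genes), 4 had PE values above the untreated ones without overlap (20.2% of all genes) and 0 had them below (25.2% of all genes). The 4 were Rcan1, Nfatc2, Nfatc1 and Nfatc4. For Nfatc1 the lowest PE value was 7.74 against a highest untreated value of 7.72, and for Nfatc4 6.764 against 6.762, so these separations were very small. In WT 0 passed (0.00502% of all genes), 1 had an unadjusted p under 0.05 (11.7% of all genes), 2 lay above (22.7% of all genes) and 4 below (23.5% of all genes). An unadjusted p under 0.01 together with at least 1.5-fold picked Rcan1 alone in the averaged comparison (1.34% of all genes) and in WT (0.818% of all genes), and 0 of 9 in S105A (0.311% of all genes). The median PE difference of the 9 was -0.03 over both genotypes, against -0.02 over all 19938 genes.

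The next question was whether the S105A mutation of GATA4, a partner of NFAT, changed these genes or their PE values. The test of the difference in PE effects found 0 of 9 past an adjusted p of 0.05 by limma (0% of all genes) and 0 at an unadjusted p under 0.05 (2.42% of all genes). For Rcan1 the S105A effect less the WT effect was -0.20 (SE 0.37), with a 95% interval of -1.09 to 0.69, which does not show that the effects were alike. Under PE, Rcan1 averaged 10.78 ± 0.27 in S105A hearts and 11.15 ± 0.58 in WT hearts (mean ± SD, n = 2 each), a difference of -0.37 (SE 0.26, limma adjusted p = 0.989), and the values overlapped. Without PE it averaged 9.88 ± 0.16 in S105A hearts and 10.04 ± 0.05 in WT hearts (mean ± SD, n = 2 each), a difference of -0.17 (SE 0.26, limma adjusted p = 0.998).

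Among the other members, Nfatc3 and Rcan2 had the largest genotype differences without PE. Nfatc3 was at 8.74 and 8.52 in untreated S105A hearts and 9.02 and 8.78 in untreated WT hearts, a difference of -0.27 (SE 0.12, unadjusted p = 0.0593, limma adjusted p = 0.962). Rcan2 had a difference of -0.19 (SE 0.10, unadjusted p = 0.089, limma adjusted p = 0.966). Both genes had S105A values below the WT values without overlap, as did Rcan1 and Ppp3cb, which makes 4 of 9 against 22.7% of all genes, and Nfatc2 alone lay above (21.8% of all genes). In this comparison 0 of 9 passed by limma (0% of all genes), and 0 had an unadjusted p under 0.05 (4.96% of all genes). Under PE 0 of 9 passed by limma (0% of all genes), 0 had an unadjusted p under 0.05 (2.68% of all genes), and Ppp3r1 was the 1 gene with S105A values below the WT values without overlap (13% of all genes). Averaged over treatments, the S105A differences lay between -0.27 (Rcan1) and 0.14 (Nfatc2), with overlap in all 9 (1.5% of all genes were higher and 1.62% lower without overlap). There 0 of 9 passed by limma (0.00502% of all genes), with 0 at an unadjusted p under 0.05 (4.99% of all genes).

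Rcan1 was the 1 member whose 8 values spanned at least 1 log2 unit (1.80), and the genes with the most similar values were sought by the root mean square difference over the 8 arrays after centring each gene on its own mean. The closest were Tnfrsf12a, a receptor of the TNF family (0.0994 log2 units), Fgl2, a fibrinogen-like protein, the matrix proteoglycan gene Bgn (0.101), Laptm5, a lysosomal membrane protein of blood cells (0.104), and Ccdc80, a secreted matrix protein (0.104). Their PE differences averaged over genotypes were 0.91 (Tnfrsf12a) to 1.04 (Fgl2), each with a limma adjusted p of 0.275. The other 8 members were 0.474 (Nfatc4) to 0.713 (Ppp3cb) away. In each of the 5 closest genes, as in Rcan1, all PE hearts lay above all untreated hearts and array 3 had the highest value, array 7 the next. The 5 were chosen on these same 8 values, so this order and their PE differences largely follow from the choice.

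**Figure D3:**
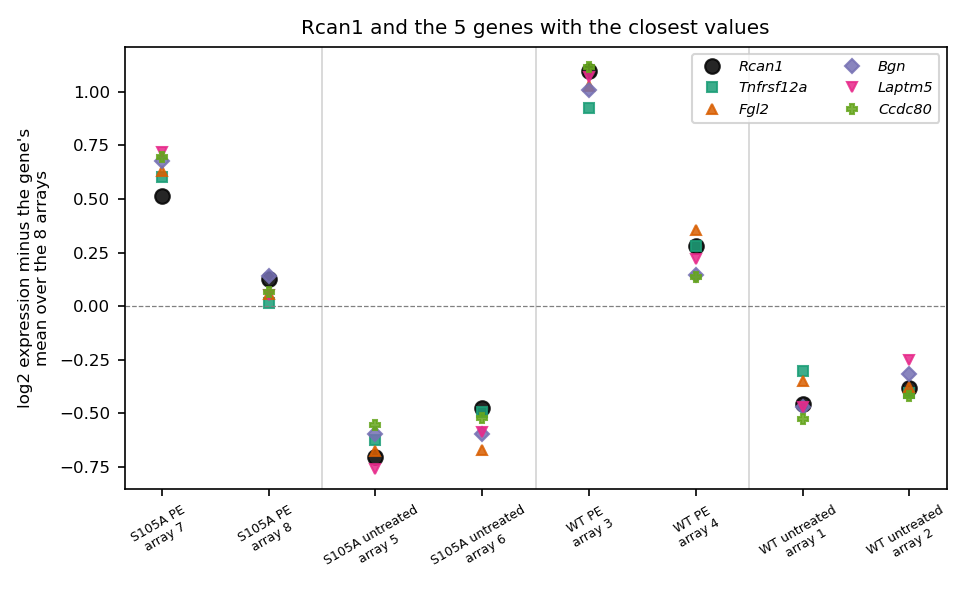
Log2 expression minus the mean of the gene over 8 arrays, for Rcan1 (black circles) and the 5 genes with the closest values, by group and array. For all 6 genes array 3 is highest, array 7 second, and the 4 untreated hearts of both genotypes lie below 0.

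Most fibroblast and macrophage markers had higher values in the PE hearts, while the other marker lists did not share this. Of 10 fibroblast markers, 8 had PE values above all untreated values (median difference 1.57), against 6.7% of all genes. Their summed linear signal was 19010 to 31570 in S105A PE hearts, against 10800 to 11120 in untreated S105A hearts. In WT it was 17740 to 39290 in PE hearts, against 11180 to 12630 in untreated hearts. Of 10 macrophage markers, 8 had PE values above all untreated values as well (median difference 0.93), against the same 6.7% of all genes. Their sums were 6992 to 11010 in S105A PE hearts, against 4543 to 4683 in untreated S105A hearts. In WT the sums were 7841 to 13640 in PE hearts, against 5091 to 6187 in untreated hearts. The part of these cells in the Rcan1 values was not tested. Endothelial markers (median PE difference -0.16), cardiomyocyte markers (-0.14), T and B lymphocyte markers (-0.09), smooth muscle and pericyte markers (0.03), 2 erythroid markers (-0.85) and the endocardial markers given above (-0.55) made up the remaining lists. PE values lay below all untreated values in 3 of 10 cardiomyocyte, 2 of 9 smooth muscle and pericyte and 1 of 2 erythroid markers (6.15% of all genes). They lay above in 2 of 9 smooth muscle and pericyte markers (6.7% of all genes). For 0 of 10 endothelial markers did they lie apart in either direction. None of the markers in any of the lists passed by limma over all genes (0.00502% of all genes).

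The rest of the pathway was read from 6 lists of genes, for the PE difference averaged over genotypes. Genes counted as having risen or fallen passed an adjusted p of 0.05 by limma there, as 0.00502% of all genes did. Among 15 measured genes known as calcineurin-NFAT targets in heart or other cells, 1 rose (Myh7) and 0 fell, and the median was 0.30, against -0.02 over all genes. Myh7, Nppa and Nppb of this list also served as stress marks here. The list was chosen with earlier results of these data known, so its median may partly restate that choice. Nppa, the atrial natriuretic peptide gene, had log2 values of 13.76 and 13.08 in S105A PE hearts, against 10.73 and 10.92 in untreated S105A hearts, and 13.95 and 12.92 in WT PE hearts, against 11.11 and 11.84 in untreated WT hearts. Its difference was 2.28 (SE 0.28, limma adjusted p = 0.234). Ptgs2, the inducible cyclooxygenase, had a difference of 0.91 (SE 0.21), the B-type natriuretic peptide gene Nppb one of 0.93 (SE 0.25), and the cytokine gene Il6 one of 0.44 (SE 0.11) at log2 values under 4.6. In 4 of the 15 the PE and untreated hearts did not overlap, all of them higher with PE, against 6.7% of all genes, and 5 had negative differences, down to -0.41. Without arrays 3 and 7 the differences were 1.85 (Nppa, limma adjusted p = 0.0189, a call shared there by 0.687% of all genes), 0.57 (Ptgs2), 0.54 (Nppb) and 0.27 (Il6). In the other comparisons Myh7 in WT was the 1 list member that passed.

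Among 15 genes, those of kinases that act on NFAT and the NFAT relative Nfat5, 0 rose and 0 fell, and 11 had negative differences. The median was -0.07, against -0.02 over all genes, and the differences ran from -0.57 to 0.17. The 4 named below had the smallest p and not the largest differences. Dyrk1b and Dyrk1a, whose products phosphorylate NFAT, had differences of -0.30 (SE 0.05, limma adjusted p = 0.275) and -0.20 (SE 0.06). The stress kinase genes Mapk8 and Mapk14 had differences of -0.31 (SE 0.10) and -0.21 (SE 0.08). Dyrk1b had log2 values of 9.36 and 9.30 in S105A PE hearts, against 9.60 and 9.56 in untreated S105A hearts, and 9.23 and 9.25 in WT PE hearts, against 9.57 and 9.61 in untreated WT hearts. All 4 PE hearts lay below all 4 untreated hearts for Dyrk1b, Dyrk1a and Mapk8, 3 of 15, against 6.15% of all genes. With arrays 3 and 7 left out, the difference was -0.31 for Dyrk1b, -0.16 for Mapk8 and -0.10 for Mapk14.

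Among 20 further calcineurin subunits and regulators, 0 rose, 0 fell and the median was 0.06. The calcineurin-homologous gene Chp2 had a difference of -0.24 (SE 0.07) at log2 values of 5.93 to 6.43, near the array medians. The calcium-binding protein gene Cib1 had one of 0.45 (SE 0.22). Fkbp1a and Ppia, which encode the binding proteins of the calcineurin-inhibiting drugs FK506 and cyclosporin, had differences of 0.26 (SE 0.11) and 0.28 (SE 0.14). Without arrays 3 and 7 these were 0.07 for Cib1, 0.08 for Fkbp1a and 0.07 for Ppia. Among 11 calmodulin and calmodulin kinase genes 0 rose and 0 fell (median 0.04). Camk1, a calmodulin-dependent kinase, had the largest difference at 0.65 (SE 0.20, limma adjusted p = 0.277), with values of 9.84 and 9.13 in S105A PE hearts, 9.05 and 9.04 in untreated S105A hearts, 10.15 and 9.43 in WT PE hearts and 8.98 and 8.85 in untreated WT hearts. Its activating kinase gene Camkk2 had a difference of 0.26 (SE 0.10), and Camk2a and Camk2b, of the CaMKII family, differences of -0.36 (SE 0.18) and -0.18 (SE 0.09). Leaving out arrays 3 and 7 gave 0.30 (Camk1), 0.13 (Camkk2), -0.07 (Camk2a) and -0.05 (Camk2b).

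Among 15 calcium entry and release channel genes 0 rose and 0 fell (median 0.01). The store-operated channel genes Orai1 and Orai2 had differences of 0.21 (SE 0.09) and 0.32 (SE 0.14), the IP3 receptor gene Itpr2 one of 0.26 (SE 0.11) and Trpc5 one of -0.15 (SE 0.07). The Trpc5 values were 4.92 to 5.24, under the array medians, so its difference says little. Among 13 factors that work with NFAT or are calcineurin substrates 0 rose and 0 fell (median -0.02). The MEF2 genes, which calcineurin also activates, had differences of -0.21 (Mef2a, SE 0.09), -0.12 (Mef2d, SE 0.06) and 0.10 (Mef2c, SE 0.05), and the coactivator gene Crtc3 one of 0.13 (SE 0.09). When arrays 3 and 7 were left out, the difference was 0.13 for Orai1, 0.10 for Orai2, 0.10 for Itpr2, -0.10 for Mef2a and 0.02 for Crtc3.

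**Figure D4:**
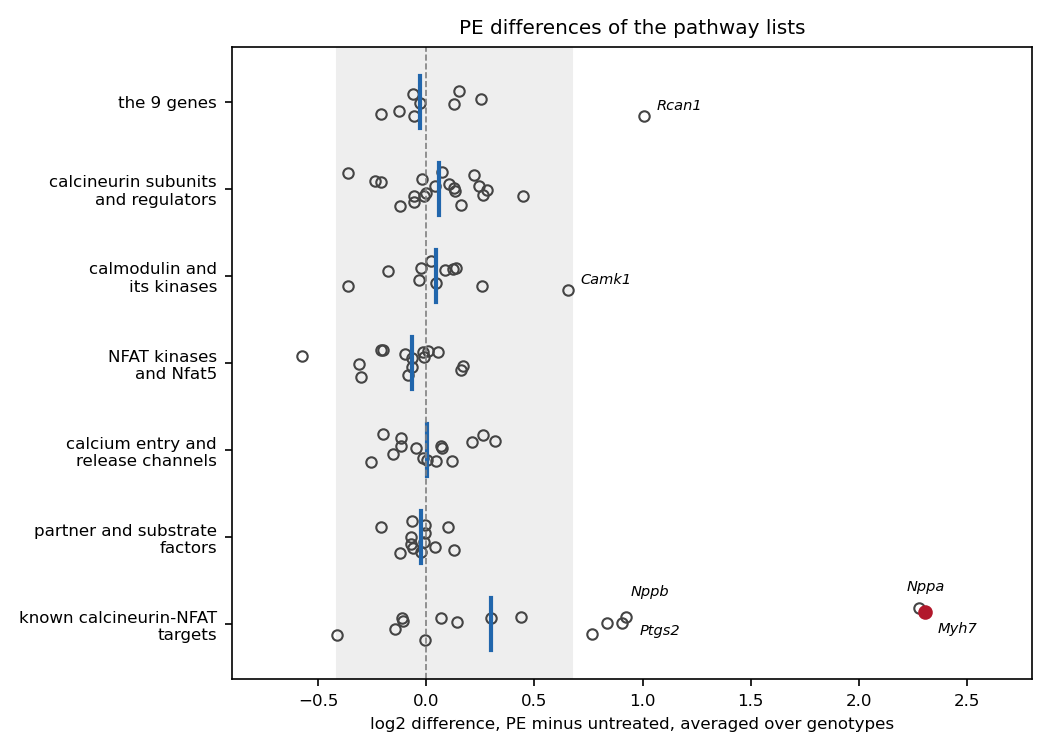
PE minus untreated differences averaged over genotypes, on the log2 scale, for the 9 genes and for 6 lists of the wider pathway, with 1 point per gene (filled red where the limma adjusted p is under 0.05), blue lines at the medians and grey shading over the central 95% of all 19938 genes (-0.41 to 0.67). Rcan1 lies outside the shading at 1.01, Myh7 is the 1 filled point, and the other 8 of the 9 genes lie inside the shading.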

How the data were processed

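The authors deposited log2 expression values per probe set, and RMA is the tool in the submitters' processing notes. The RMA version and genome build were not given in the sources used here. The quantile step of RMA equalises the distributions of the arrays, which hides a change common to most genes, and no detection calls were used. Of 35557 rows, 21789 carried 1 gene symbol, 1621 several and 12147 none. Genes with several probe sets were read from the one with the highest mean, which left 19938 genes.

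With limma 3.58.1 (R 4.3.3), group means were fitted over all 8 arrays (4 residual degrees of freedom, prior of 2.74 degrees of freedom), and P values were adjusted by Benjamini-Hochberg over all genes in each of 7 comparisons. The fit was tested on simulated data. Groups came from the titles, which number separate animals. Every member was named, as were Gata4, the stress marks Myh7, Nppa and Nppb, the 5 genes closest to Rcan1 and, of each of the 6 pathway lists, the 4 genes with the smallest p. The values of these list genes without arrays 3 and 7 were added after seeing the data. The members, the pathway and marker lists and the alternatives, including the one without arrays 3 and 7, were chosen with earlier results of these data known. Figures were drawn with matplotlib 3.10.9.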

Additional observations from a re-analysis of the deposited data

How the results depend on the processing

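The count of members past the threshold was 0 in each of the 7 comparisons, where at most 0.00502% of all genes passed. It stayed at 0 after dropping the 40% lowest genes, with probe sets averaged, all rows tested, repeated quantile normalization, array weights, robust trended variances, only the 4 arrays compared, and a model without interaction. In these settings at most 0.0301% of all genes passed, so a count of 0 of 9 says little about the members. With an unadjusted p under 0.01 and at least 1.5-fold it was 1 in WT and 1 in the averaged PE comparison (Rcan1 in both; 0.818% and 1.34% of all genes). Without arrays 3 and 7 it was 1 in the averaged comparison (Rcan1; 0.687% of all genes). With any 1 array left out it was 0 to 2 in WT and 0 to 2 in the averaged comparison, the 2 being Rcan1 and Nfatc4 without array 4, where 17.8% (WT) and 20.7% (averaged) of all genes passed. Without array 3 or 4, or without arrays 3 and 7, the spread between these PE hearts no longer enters the fit, and the lone heart is assumed to vary like the other groups.

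The PE difference of Rcan1 minus Rcan2 was 0.91 to 1.29 with 1 array left out (exact permutation p of 0.0571 without array 5 and 0.0286 otherwise), and 0.75 without arrays 3 and 7, where the smallest possible exact p is 0.0667. Some member differences changed sign, none of them past the threshold with all arrays or with the sign turned. Without arrays 3 and 7 these were Nfatc4 in WT (-0.057), Ppp3ca averaged (0.0013) and in S105A (0.014), Ppp3cb in S105A (0.015) and Rcan2 in S105A (0.073). With 1 array left out the ranges were -0.118 to 0.00041 (Nfatc3 averaged), -0.0079 to 0.214 (Nfatc3 in S105A), -0.057 to 0.412 (Nfatc4 in WT), -0.055 to 0.018 (Ppp3ca in S105A), -0.247 to 0.015 (Ppp3cb in S105A), -0.142 to 0.021 (Ppp3r1 in S105A), -0.135 to 0.0091 (Ppp3r1 in WT) and -0.113 to 0.073 (Rcan2 in S105A). The cause was not tested. No paired analysis was possible because the titles number the animals 1 to 8 and no number is shared between groups.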
